A study of Mus musculus with 11 samples.

Results

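The glands compared here were normal mammary glands of pregnant females, 3 from the inbred strain Balb/C and 2 from FVB, among 11 arrays in the series. They were chosen by the strain in their labels and cover 5 arrays. All came at day 17.5 of pregnancy from animals for which no treatment and no transgene is named, and no age is given. FVB is the background of most of the study's tumor models and Balb/C that of its p53 transplant model, so the comparison sets the miRNA levels of glands from these background strains side by side. The other gland arrays, 3 from the mixed background FVB129B6, enter the estimate of the spread, the choice of tested miRNAs and some scalings. The 3 tumor arrays were not used. The titles of 2 Balb/C arrays (M2_2L and M2_2R) could name both sides of 1 mouse, so the p-values measure the spread between these samples, which may partly be spread within an animal.

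A miRNA is a short RNA that guides a silencing complex to messenger RNAs, mainly through its seed, the bases 2 to 8 from its 5' end. miRNAs with the same seed can act on overlapping sets of messages, and miRNAs whose hairpins lie side by side are often cut from a single transcript. The mammary gland in late pregnancy is rich in alveolar epithelium preparing for milk secretion, within a pad that also holds fat, vessels, blood and connective tissue, and that borders on muscle. Several miRNAs are textbook markers of such cells, among them miR-1, miR-133 and miR-206 for muscle, miR-451 for red cells and the miR-200 family for epithelium.

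The array carried 334 mouse miRNAs with 4 spots each. A level is the log2 of the green spot intensity minus the median of that array, averaged over the spots of a miRNA, so a level of 0 is the array's median and 1 unit is a doubling. A miRNA was tested when at least 0.5 of its spots were well above background, by the scanner program's call, on at least 3 of the 8 gland arrays. Of the 334 miRNAs 261 were tested, and 204 of these were well above background on all 5 arrays. Another 4 of the 261 were so on none of the 5 and were tested through the FVB129B6 arrays. Differences are Balb/C minus FVB.

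The sequences that follow are the miRNAs on which the comparison turns. They are the RefSeq mature forms of the mouse build GRCm38.p6, 5' to 3', with the seed in capitals. Of the 334 array miRNAs 259 matched a RefSeq mature miRNA with the same 5' end and 20 matched one of the same name with a shifted 5' end. Of the miRNAs listed, miR-133b, miR-138 and miR-764-5p are of the shifted kind. The first set was higher in Balb/C. The muscle miRNAs are miR-206 at chr1:20679055-20679076 and miR-133b at chr1:20682834-20682855, both on the plus strand and inside the span of the noncoding gene Lincmd1.
miR-206: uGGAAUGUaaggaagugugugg
miR-133b: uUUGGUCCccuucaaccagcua
miR-337: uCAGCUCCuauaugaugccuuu
miR-382: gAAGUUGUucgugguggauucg
miR-539: gGAGAAAUuauccuuggugugu
miR-672: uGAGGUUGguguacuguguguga
miR-218: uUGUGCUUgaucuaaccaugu
miR-21: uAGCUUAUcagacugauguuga
miR-224: uAAGUCACuagugguuccguu
miR-337 at chr12:109585850-109585871, within the span of Rtl1, and miR-382 at chr12:109733781-109733802 and miR-539 at chr12:109728136-109728157 belong to the imprinted Dlk1-Dio3 region. miR-672 lies at chrX:104116228-104116250, miR-21 at chr11:86584120-86584141 within the span of Vmp1, and miR-224 at chrX:72261085-72261105 within the span of Gabre. miR-218 has a copy in Slit3, at chr11:35616840-35616860, and another in Slit2, at chr5:48223966-48223986. No pair of these miRNAs shares a seed. miR-1, miR-133a* and miR-468 are named below by the array's name only.

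The second set was lower in Balb/C. It opens with the 3 miRNAs of a cluster on the minus strand of chromosome 6, whose hairpins span chr6:30165918-30169737 within the noncoding gene Mirc35hg, and it includes miR-107 with its near copy miR-103.
miR-183: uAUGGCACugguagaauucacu
miR-96: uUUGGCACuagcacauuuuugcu
miR-182: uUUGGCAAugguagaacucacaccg
miR-107: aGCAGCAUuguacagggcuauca
miR-103: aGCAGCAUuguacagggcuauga
miR-138: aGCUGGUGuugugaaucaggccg
miR-129-5p: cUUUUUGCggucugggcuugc
miR-491: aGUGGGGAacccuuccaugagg
miR-705: gGUGGGAGguggggugggca
miR-762: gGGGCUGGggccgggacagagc
miR-764-5p: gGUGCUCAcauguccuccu
The seeds of miR-183, miR-96 and miR-182 differ from each other although the miRNAs come from the same stretch of chromosome 6. miR-107 and miR-103 share the seed GCAGCAU. miR-107 lies at chr19:34820700-34820722 within the span of Pank1, miR-491 at chr4:88122057-88122078 within Focad, miR-705 at chr6:85336341-85336360 within Rab11fip5, miR-762 at chr7:127708534-127708555 within Bcl7c and miR-764-5p at chrX:147002285-147002303 within Htr2c. miR-138 has copies at chr8:94324312-94324334 and chr9:122682898-122682920, and miR-129-5p at chr2:94241419-94241439 and chr6:29022624-29022644. miR-689 and miR-124a, also lower, are named only.

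Skeletal muscle miRNAs differed most between the strains, 24.0- to 42.2-fold higher in the Balb/C glands. The largest difference the other way was that of miR-183, 4.80-fold lower, and miR-182 of its cluster was 3.30-fold lower. Between these extremes most miRNAs differed by less, and the direction of the smaller differences depended on how the arrays were scaled. With the array median as the zero point 99 miRNAs passed an adjusted p of 0.05 (limma), 37.9% of those tested. Of these 15 were higher in Balb/C (5.75% of those tested) and 84 were lower (32.2%). The FVB arrays were dimmer, with median intensities of 245.5 and 188.5 against 508 to 583 on the Balb/C arrays, and the median difference over all tested miRNAs was -0.48. Some differences are therefore also given relative to that median. Relative to it miR-183 was at -1.78, miR-182 at -1.24, miR-124a at -0.90, and miR-491 and miR-705 at -0.74. When the zero point was the 75th percentile instead, the median difference was -0.05 and the calls split into 31 higher (11.9% of those tested) and 16 lower (6.13%).

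To separate what depended on the zero point from what did not, each miRNA was followed through 5 scalings, namely centering on the array median, on the 75th percentile or on the median of detected miRNAs, quantile normalization, and a normexp background correction with the array median. The shares called higher and lower were 16.5% and 9.96% under the median of detected miRNAs, 8.05% and 12.6% under quantile normalization, and 17.6% and 25.7% under normexp. In all 5 scalings 20 miRNAs (7.66% of those tested) were called in the same direction, 9 higher (3.45%) and 11 lower (4.21%). Another 3 miRNAs well above background on all Balb/C arrays and on no FVB array are given as bounds, as is miR-129-5p, which is among the 20. The levels of these 23 miRNAs did not overlap between the strains. Levels did not overlap for 152 of the 261 tested miRNAs (58.2%), higher in Balb/C for 34 (13.0%) and lower for 118 (45.2%), so a lack of overlap between 3 and 2 arrays was common.

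**Figure D1:**
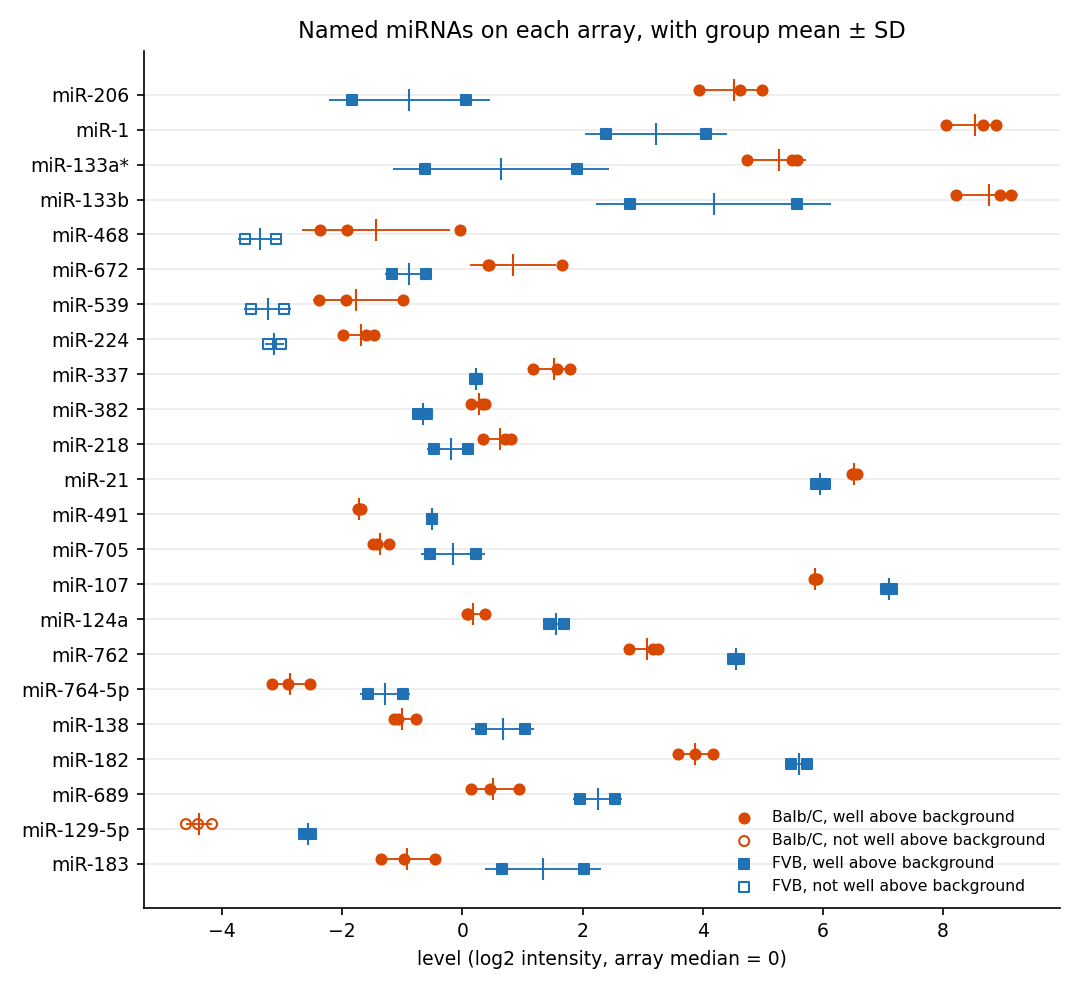
Levels of the 23 named miRNAs on each array (horizontal axis, log2 intensity with the array median at 0), for 3 Balb/C (circles) and 2 FVB (squares) arrays. Vertical ticks and bars are the group mean and SD, and open symbols were not well above background. The 4 muscle miRNAs at the top show the widest separation and the widest spread between the FVB arrays, and miR-491 and miR-107 lower down show narrow groups that lie apart.

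miR-206, a miRNA of skeletal muscle, stood at 4.99, 4.61 and 3.94 in Balb/C and at -1.83 and 0.06 in FVB. The green intensities behind these levels were 18539, 12422 and 8580 in Balb/C against 68.8 and 197 in FVB. All Balb/C arrays were far above both FVB arrays, and the FVB arrays differed from each other more than the Balb/C arrays did. The difference was 5.40 ± 0.54 (SE, limma, adjusted p = 0.00176), a 42.2-fold higher level in Balb/C.

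miR-1, a miRNA of heart and skeletal muscle, showed the same order, with 8.89, 8.67 and 8.06 in Balb/C and 2.38 and 4.06 in FVB. The means were 8.54 ± 0.43 (SD, n = 3) and 3.22 ± 1.18 (SD, n = 2), and the difference was 5.32 ± 0.47 (SE, adjusted p = 0.00131). miR-133b, transcribed together with miR-206 on chromosome 1, was at 8.95, 9.12 and 8.21 in Balb/C and at 2.80 and 5.56 in FVB, a difference of 4.58 ± 0.70 (adjusted p = 0.00543). miR-133a* was at 5.57, 5.49 and 4.73 against -0.63 and 1.91, a difference of 4.62 ± 0.65 (adjusted p = 0.00392). The second FVB array was the higher of the pair for each of the 4 miRNAs, by 1.67 to 2.77.

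Because of that gap the size of the difference rests on which FVB array is kept, though not its direction. Without the first FVB array the difference was 4.45 for miR-206, 4.48 for miR-1, 3.35 for miR-133a* and 3.20 for miR-133b. Without the second it was 6.35, 6.15, 5.89 and 5.97 in the same order. All 4 stayed called in each fit that left out an array, with adjusted p up to 0.0136. All 4 members of the muscle list on the array were thus higher, with a median difference of 4.97 against -0.48 over all tested miRNAs. Under the 5 scalings the list's median stood 4.83 to 5.45 above the median of all. The list leaves out miR-499, which lies within the span of Myh7b and was not called (difference -0.35). The probes of miR-1 and miR-206 are 5 edits apart, each being the other's nearest mouse probe. Those of miR-133a* and miR-133b are 9 and 8 edits from any other mouse probe on the array. The array has no mouse probe named miR-133a, so whether miR-133a adds to the miR-133b signal was not tested.

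The summed level of the 4 muscle miRNAs, the log2 of the sum of their linear levels, was 10.03, 10.01 and 9.24 in Balb/C and 3.71 and 6.10 in FVB. In the FVB129B6 glands it was 8.52 to 8.69. In bulk tissue more muscle in the sample and more of these miRNAs per cell cannot be told apart, and the part of muscle in the other differences was not tested.

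Outside muscle, the miRNAs higher in Balb/C under all 5 scalings were miR-672, miR-337, miR-382, miR-218 and miR-21. miR-672 was at 1.66, 0.42 and 0.44 in Balb/C and at -1.17 and -0.61 in FVB. The first Balb/C array was well above the other two, and all Balb/C arrays lay above both FVB arrays. The difference was 1.73 ± 0.39 (adjusted p = 0.0124), or 3.32-fold. It was 1.32 without the first Balb/C array, and the call was lost in 1 of 8 fits that each left out an array, without the first FVB array (adjusted p = 0.0545).

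miR-337, in the imprinted chromosome 12 region, was at 1.18, 1.58 and 1.79 in Balb/C and at 0.25 and 0.21 in FVB. The difference was 1.29 ± 0.24 (adjusted p = 0.00787), a 2.44-fold higher level, and relative to the median of all miRNAs it was 1.77. miR-382, further along the same region, was at 0.32, 0.14 and 0.37 against -0.73 and -0.58. Its groups were tight and apart, with a difference of 0.94 ± 0.16 (adjusted p = 0.00617), or 1.92-fold.

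miR-21, one of the most widely expressed miRNAs and raised in many tumors, was at 6.49, 6.57 and 6.50 in Balb/C and at 6.04 and 5.88 in FVB. Its difference was 0.56 ± 0.18 (adjusted p = 0.0464), the smallest among the miRNAs called higher, and 1.05 relative to the median of all. miR-218, encoded within the Slit2 and Slit3 genes, was at 0.71, 0.34 and 0.80 against 0.08 and -0.47, a difference of 0.81 ± 0.27 (adjusted p = 0.0473). These calls were marginal under the array median. That of miR-21 was lost in 7 of 8 fits that left out an array, all but the fit without the second FVB129B6 array (adjusted p up to 0.163). That of miR-218 was lost in 5 of 8, without the first or the third Balb/C, the second FVB, or the first or the second FVB129B6 array (up to 0.244), while their differences stayed between 0.48 and 0.64 and between 0.53 and 1.09.

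miR-468, miR-539 and miR-224 were well above background on all 3 Balb/C arrays and on neither FVB array, so each difference is a lower bound. For the bound, the FVB level was not allowed to go below a floor. The floor was the level of the dimmest detected miRNA on that array, -2.80 and -2.86. miR-468 was at -0.04, -2.36 and -1.93 in Balb/C and was at least 2.61-fold higher there, although in the fit with levels below each array's floor raised to it the difference was not called (adjusted p = 0.0979). Its first Balb/C array was far above the others, and without it the fitted difference fell from 1.92 to 1.22. The call without the floor (adjusted p = 0.0455) was lost in 6 of 8 fits that left out an array, all but those without the first or the second Balb/C array. miR-224 was at -1.99, -1.60 and -1.47 and was at least 2.21-fold higher (adjusted p = 0.00588), a call that held with the floor. miR-539 was at -2.38, -0.99 and -1.94 and was at least 2.08-fold higher (adjusted p = 0.0228). Its call was lost with the floor (adjusted p = 0.052), with outlier spots kept (0.196), and without the first FVB array, where the fitted difference was 1.19 (0.103). Under normexp these dim miRNAs were close to 0, with differences of 0.09 for miR-468, -0.11 for miR-224 and -0.087 for miR-539. Normexp starts from the median spot and background signals and adds an offset of 50, and the effect of each step was not tested.

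miR-207 had the fifth largest difference in this direction, 2.50 ± 0.56 (adjusted p = 0.0124), and is named here after its values were seen. It was at 1.09, -1.03 and -0.72 in Balb/C and at -2.65 and -2.79 in FVB, well above background on all 5 arrays. The FVB levels lay close to the floors of those arrays, -2.80 and -2.86. The first Balb/C array was far above the other Balb/C arrays. It does not belong to the 20 because its normexp difference was 0.38 (adjusted p = 0.35).

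miR-183 of the chromosome 6 cluster had the largest difference of the lower set, ahead of miR-129-5p (-1.81) and miR-689 (-1.74). miR-183, miR-96 and miR-182 are made from a shared transcript and are known for their high expression in sensory and other epithelia. miR-183 was at -0.97, -1.35 and -0.46 in Balb/C and at 0.65 and 2.02 in FVB. Every Balb/C array was below both FVB arrays, which were 1.37 apart. The difference was -2.26 ± 0.42 (adjusted p = 0.00787), a 4.80-fold lower level. It was -2.95 without the first FVB array and -1.58 without the second, and called in both.

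miR-182 was at 3.87, 3.59 and 4.17 in Balb/C and at 5.74 and 5.46 in FVB. The means were 3.88 ± 0.29 (SD, n = 3) and 5.60 ± 0.20 (SD, n = 2), and the difference was -1.72 ± 0.21 (adjusted p = 0.0024). miR-96, whose hairpin lies between the others, was at 3.87, 3.46 and 4.22 against 4.80 and 5.25. Its difference was -1.18 ± 0.26 (adjusted p = 0.0124), and under the 75th percentile it was -0.75 with an adjusted p of 0.0696, so it was not among the 20. In the FVB129B6 glands the mean levels were -1.15 for miR-183, 4.24 for miR-182 and 4.28 for miR-96. The probes of miR-182 and miR-183 are 6 edits apart.

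miR-107 and miR-103, which lie in genes of pantothenate kinases and are known for effects on lipid metabolism, differed in the same direction. miR-107 was at 5.87, 5.85 and 5.89 in Balb/C and at 7.15 and 7.04 in FVB. Both groups were tight, and the difference was -1.22 ± 0.15 (adjusted p = 0.0024), or -0.74 relative to the median of all miRNAs. miR-103 was at 5.88, 5.94 and 5.91 against 7.14 and 7.02, a difference of -1.17 ± 0.15 (adjusted p = 0.00265). Their probes differ by 1 edit, so their signals cannot be told apart. Without any scaling the intensities of miR-107 were 34016, 29368 and 33243 in Balb/C and 34824 and 24872 in FVB, which overlap. The lower level of miR-107 in Balb/C is therefore a level relative to the rest of the array, and without scaling no miRNA was called lower in Balb/C.

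The same reading holds for the other miRNAs of the lower set. miR-138, a miRNA enriched in brain, was at -0.77, -1.15 and -1.07 in Balb/C and at 0.30 and 1.04 in FVB, a difference of -1.67 ± 0.24 (adjusted p = 0.00458). miR-124a, the best known neuronal miRNA, was at 0.38, 0.09 and 0.07 against 1.44 and 1.68, a difference of -1.38 ± 0.17 (adjusted p = 0.0024). miR-491 had narrow groups, at -1.73, -1.70 and -1.74 against -0.50 and -0.51, and differed by -1.22 ± 0.15 (adjusted p = 0.0024).

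miR-129-5p was well above background on both FVB arrays, with 2 of 4 spots on each, and on no Balb/C array. With the array median as the zero point its level in Balb/C was at least 3.31-fold lower (adjusted p = 0.00543). The call held with levels below the floor of each array raised to it. The fitted difference was -1.38 under the 75th percentile, -1.36 under the median of detected miRNAs, -1.42 under quantile normalization and -0.69 under normexp. These are smaller than the bound (1.72 in log2), which applies to the array median only. The green intensities were 27.6, 28.3 and 23.0 in Balb/C and 39.5 and 32.8 in FVB.

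The remaining miRNAs of the lower set carry late registry numbers. miR-689 was at 0.46, 0.15 and 0.94 in Balb/C and at 1.96 and 2.54 in FVB (difference -1.74 ± 0.27, adjusted p = 0.00543). miR-762 was at 3.25, 2.77 and 3.18 against 4.61 and 4.51 (-1.49 ± 0.19, adjusted p = 0.0024). For both the arrays of the 2 strains lay well apart. miR-764-5p was at -2.54, -2.90 and -3.16 against -1.58 and -0.996 (-1.58 ± 0.26, adjusted p = 0.00543). miR-705 was at -1.41, -1.50 and -1.22 against -0.53 and 0.22 (-1.22 ± 0.23, adjusted p = 0.00798). The second FVB array was the higher one for miR-138, miR-689, miR-705 and miR-764-5p, and without it their differences were -1.30, -1.45, -0.84 and -1.29. Without the first they were -2.04, -2.03, -1.60 and -1.87. The call held in each fit that left out an array for every miRNA called lower that is named here as one of the 20.

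**Figure D2:**
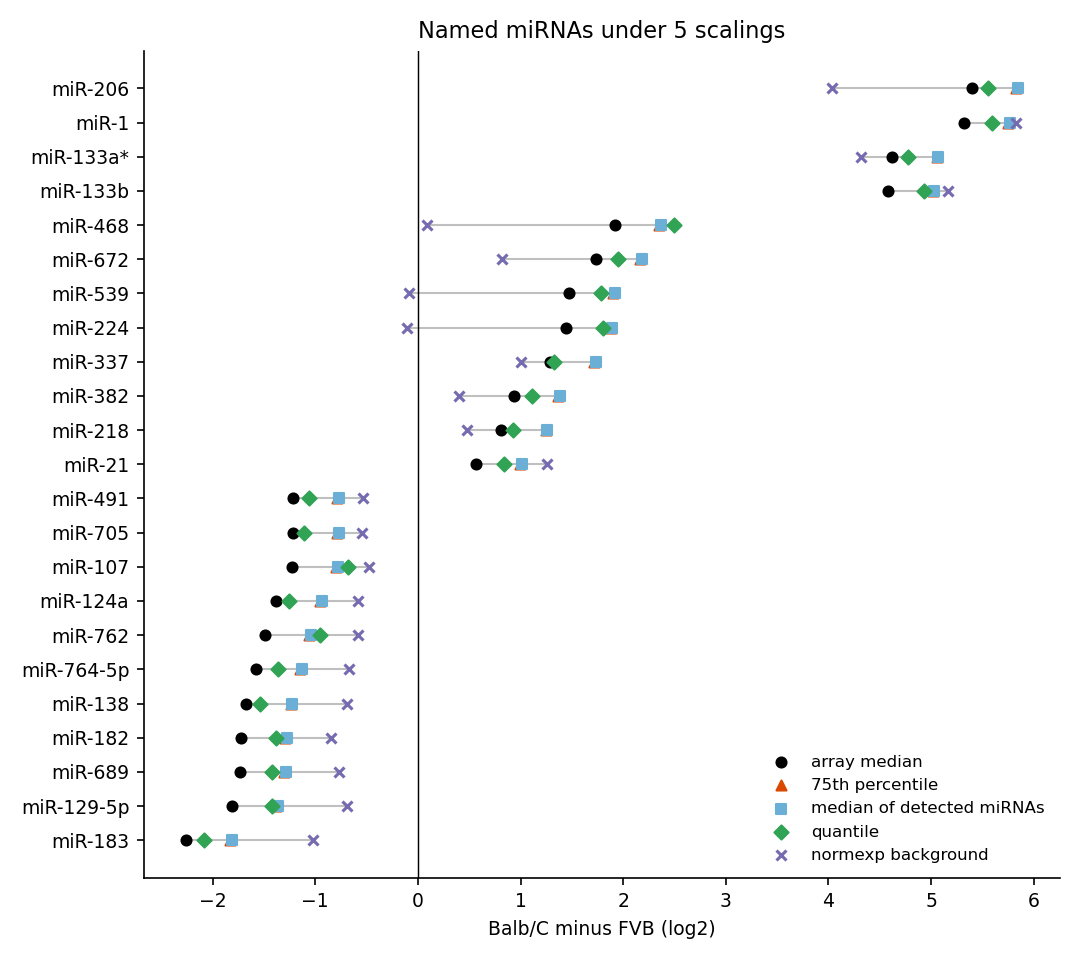
Balb/C minus FVB difference (horizontal axis, log2) of the 23 named miRNAs under 5 scalings, 1 symbol per scaling. The muscle miRNAs stay between 4.03 and 5.85, the miRNAs of the lower set reach no higher than -0.48, and miR-468, miR-539 and miR-224 fall to near 0 under normexp.

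The other calls depended on the scaling. The let-7 family, with miR-98, is expressed in most differentiated tissues. Of its 9 members, all tested, 8 were lower in Balb/C under the array median and none was higher, with a median difference of -0.79, where 32.2% of all tested miRNAs were lower. The largest was that of let-7e, -0.98 ± 0.25 (adjusted p = 0.0208), and miR-98 had the smallest, -0.34 (adjusted p = 0.28). Under the 75th percentile, quantile and normexp scalings no member was called, and under the median of detected miRNAs 1 was. The family median stood between -0.31 and 0.01 relative to the median of all miRNAs over the 5 scalings. The family of miR-23, miR-27 and miR-24 (5 of 5 lower, median -0.62) and the miR-30 family (4 of 5 lower, median -0.60) likewise stand beside the 32.2% lower over all tested, and had no member called under the other 4 scalings.

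The family of miR-148 and miR-152 includes miR-148a, which is abundant in milk. miR-148a was at 7.79, 6.90 and 8.01 in Balb/C and at 7.58 and 8.46 in FVB, and the groups overlapped, with a difference of -0.46 ± 0.38 (adjusted p = 0.358). Its relatives with the same seed, miR-148b and miR-152, were lower, by -1.20 ± 0.21 (adjusted p = 0.00588) and -1.11 ± 0.18 (adjusted p = 0.00543), and both were called under all scalings but normexp. Among the 6 tested members of the list of miR-17, miR-20, miR-93 and miR-106 1 was lower. The list's median was -0.08, which is 0.40 above the median of all. Under normexp 3 of the 6 were higher and none lower, beside 17.6% and 25.7% over all tested. All 3 tested members of the list of miR-192, miR-194 and miR-215 had negative differences and 2 were called lower, with a median of -0.97. In the list of miR-181 2 of 3 were lower, with a median of -1.21. Over all tested miRNAs 32.2% were lower. Neither list had a member called the same way under all 5 scalings. The 7 tested miRNAs of the Sfmbt2 repeat cluster, which is active in placenta and early embryo, had none called and a median of 0.31, which turned to -0.35 with normexp background correction.

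miRNAs with registry numbers from miR-680 to miR-764 came late to the registry, and several were later dropped or are little studied. Of 49 on the array 26 were tested, 13 of these were lower in Balb/C and none was higher, with a median of -0.85, beside 32.2% lower and 5.75% higher over all tested. Under the other 4 scalings 4 to 13 were lower and 1 to 5 were higher. miR-689, miR-705, miR-762 and miR-764-5p, described above, were the 4 members called lower in all 5 scalings. Larger differences were those of miR-703 (-2.18 ± 0.67, adjusted p = 0.0379) and miR-706 (-1.97 ± 0.55, adjusted p = 0.0257), named here after their values were seen. Neither was called in all 5 scalings. Among the 13 lower under the array median is miR-760 (-1.09, adjusted p = 0.0198), well above background on none of the 5 arrays.

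**Figure D3:**
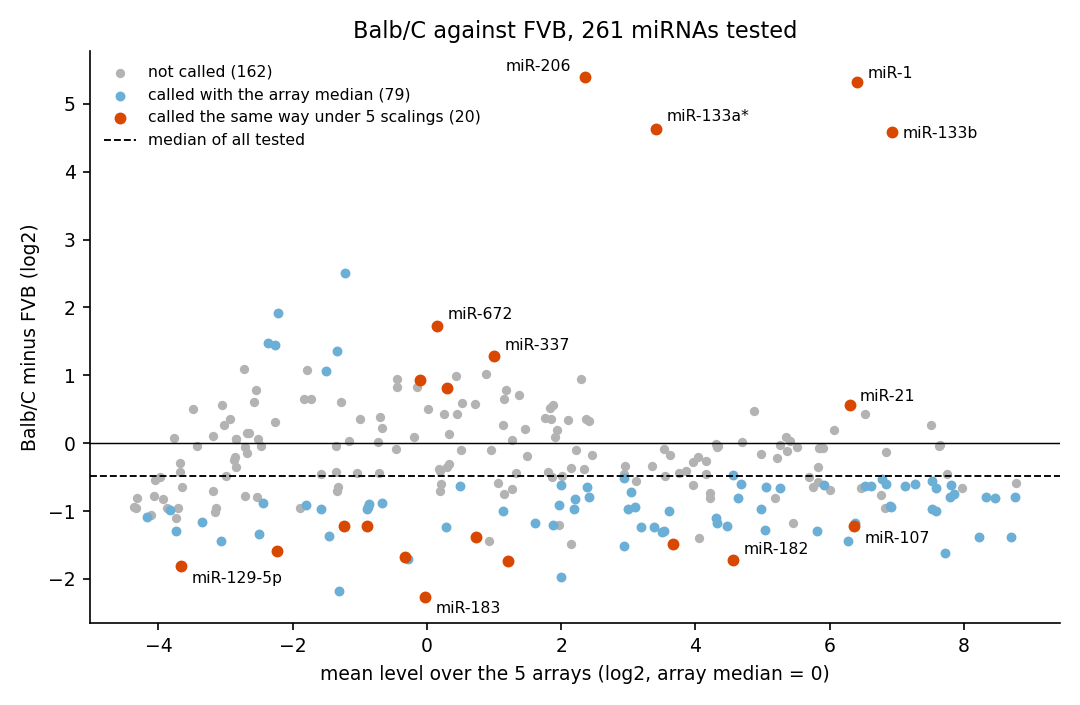
Difference between the strains (vertical axis, log2) against the mean level over the 5 arrays (horizontal axis, log2 with the array median at 0) for 261 tested miRNAs. The dashed line is the median difference, -0.48. Orange points, 20 in number, were called the same way under 5 scalings, 79 blue points under the array median but not all 5, and the 4 muscle miRNAs lie apart from all others.

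By level, the median difference was -0.44 in the dimmest 66 of the tested miRNAs, -0.10 in the next 65, and -0.49 and -0.61 in the brighter groups of 65. The brightest 65 miRNAs held 31 of the lower calls and 3 of the higher ones. The other groups, from the dimmest up, held 12, 16 and 25 lower and 4, 6 and 2 higher calls. Over all tested miRNAs 32.2% were lower and 5.75% higher.

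The imprinted region between Dlk1 and Dio3 on chromosome 12 encodes a large set of miRNAs expressed from the maternal chromosome. The array held 41 miRNAs with a RefSeq position there, within chr12:109563692-109743795, of which 32 were tested and 16 were well above background on all 5 arrays. Under the array median 5 were higher in Balb/C (miR-337, miR-377, miR-382, miR-431 and miR-539) and 2 were lower (miR-494 and miR-668). Over all tested miRNAs 5.75% were higher and 32.2% lower. Among the FVB arrays miR-377 and miR-431 were well above background on 1 of 2 and miR-539 on neither. miR-668 was so on 2 Balb/C arrays and on no FVB array, so its lower level in Balb/C compares signals near background. The median of the 32 was 0.53, against -0.48 over all tested miRNAs, and 24 of the 32 differences were above 0. miR-377 was at -1.20, -0.90 and -0.27 in Balb/C and at -1.81 and -2.49 in FVB, a difference of 1.36 ± 0.33 (adjusted p = 0.0165). miR-494, at a difference of -0.81 ± 0.16 (adjusted p = 0.00798), went the other way.

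The region's standing depended on the scaling, and why it did was not tested. Its median was 1.02 above that of all miRNAs under the array median, the 75th percentile and the median of detected miRNAs, 0.72 above under quantile normalization, and 0.00 above under normexp. The number called higher was 12 of 32 under the 75th percentile, 17 under the median of detected miRNAs and 8 under quantile normalization, with none lower in these. Over all tested miRNAs 11.9%, 16.5% and 8.05% were higher in the same order. Under normexp 6 of the 32 were higher and 11 lower, beside 17.6% and 25.7% over all. miR-337 and miR-382 were the members called higher in all 5.

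**Figure D4:**
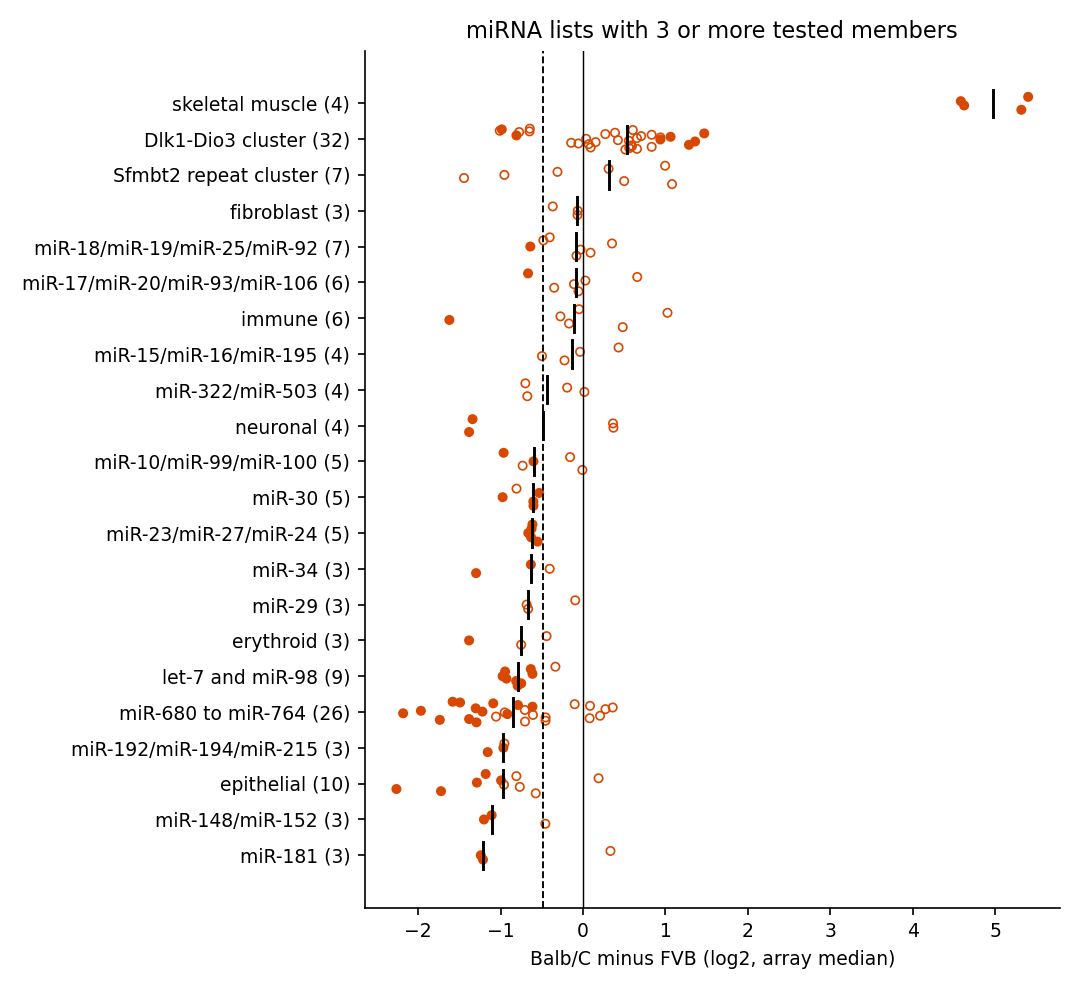
Differences between the strains (horizontal axis, log2) of the tested members of each miRNA list with 3 or more tested members (number in parentheses). Filled points passed an adjusted p of 0.05 under the array median, black ticks are list medians, and the dashed line is the median of all 261 miRNAs, -0.48. The muscle list has its median at 4.97 and the Dlk1-Dio3 list at 0.53.

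Detection of epithelial miRNAs cannot check the tissue's label, because markers of other tissues were detected as well. Of the 334 miRNAs 204 stood well above background on each of the 5 arrays. They include the liver miRNA miR-122a, the neuronal miR-124a, miR-128a and miR-128b, and the 4 muscle miRNAs. All 10 epithelial miRNAs met the same criterion. Of these 5 were lower in Balb/C (miR-182, miR-183, miR-96, miR-200c and miR-203) and none was higher, with a median of -0.98, which is 0.49 below the median of all miRNAs. The share of 5 in 10 lower stands beside 32.2% over all tested. Under the other scalings 2 or 3 were lower, and under normexp the list median was 0.07 below that of all and miR-205 was called higher. miR-200c, of the family that holds down the epithelial-to-mesenchymal regulators ZEB1 and ZEB2, was at 5.38, 4.82 and 5.69 in Balb/C and at 5.90 and 7.27 in FVB (difference -1.29 ± 0.41, adjusted p = 0.0429). It was called under the array median only, as was miR-203. miR-205, a miRNA of basal epithelium, was at 6.17, 5.73 and 6.50 against 5.43 and 6.46, overlapping, with a difference of 0.19 ± 0.37 (adjusted p = 0.723). The summed level of the list was 8.18 to 9.04 in Balb/C and 9.02 and 9.93 in FVB.

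Among the markers of other cells, the red cell miRNA miR-451 was at 8.19, 8.66 and 7.60 in Balb/C and at 9.50 and 9.57 in FVB. It was lower in Balb/C by -1.38 ± 0.32 (adjusted p = 0.0145) under the array median only, and miR-144 and miR-486 were not called. The summed level of the 3 red cell miRNAs was 7.67 to 8.72 in Balb/C and 9.53 and 9.61 in FVB. Of 6 immune miRNAs miR-146b, induced by inflammatory signals, was lower (-1.62 ± 0.44, adjusted p = 0.0229) under the array median only, and the others were not called there, beside 32.2% lower over all tested. Under normexp miR-223 was called higher. The summed level of the 6 was 7.52 to 8.83 in Balb/C and 8.37 and 9.57 in FVB. The 3 fibroblast miRNAs, with a median of -0.07, and the 2 of smooth muscle and myoepithelial cells, with a median of -0.62, had no member called under the array median, and under normexp miR-199a and miR-199b of the fibroblast list were called higher. The liver miRNA miR-122a was lower by -1.23 ± 0.25 (adjusted p = 0.0102), called under the array median, quantile and normexp scalings. Of 6 neuronal miRNAs 4 were tested and 2 were lower, beside 32.2% over all tested. miR-124a was lower in all 5 scalings and miR-9 in 3, under the array median, quantile and normexp scalings. The others, miR-128a and miR-128b, were called higher under the 75th percentile and normexp, beside 11.9% and 17.6% over all tested. Both names match the same RefSeq mature form, miR-128-3p, so their calls do not stand for separate miRNAs. The part of these cells in the differences above was not tested.

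Replicate arrays resembled each other more than arrays of different strains did. Over the 261 tested miRNAs the correlation was 0.980 to 0.987 between Balb/C arrays, 0.981 between the FVB arrays and 0.946 to 0.965 across strains, a description across miRNAs that share their array. All 8 gland arrays lay on 1 slide, and both FVB arrays were the whole of its column 4. Strain and that column cannot be told apart. The Balb/C arrays had 246 to 250 miRNAs well above background and the FVB arrays 229 and 209, and no spot was saturated.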

How the data were processed

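Total RNA of each gland was labeled with Hy3 and hybridized by the authors to a custom Agilent array built on miRBase 9.0, and spots were read with Feature Extraction 10.5.1.1. The deposited scanner files give green intensity per spot, background subtracted and dye normalized by the authors' program, with a call of each spot as well above background. The authors' deposited log2 table of the same spots served as an alternative. Normexp started from the median spot and background signals in the scanner files, not from the background-subtracted intensities. Spots marked as outliers were dropped, the log2 intensity was centered on the array median over 1336 mouse spots, and spots were averaged per miRNA. Levels were fitted over the 8 gland arrays in 3 groups with limma 3.58.1 (R 4.3.3), with Benjamini-Hochberg adjustment over the 261 miRNAs. The study's methods name no test for strains. Its detection filter was replaced by the scanner's calls.

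The miRNAs named were those called the same way under 5 scalings and well above background on all 5 arrays, at most 12 in each direction, with up to 5 bounds in each direction. Members and the 32 lists were chosen with earlier results of these data known, and the Dlk1-Dio3 list was set by RefSeq position. Probe sequences in the scanner files gave the number of base edits between probes. The number of arrays, 3 against 2, limits the precision.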

Additional observations from a re-analysis of the deposited data

Results flagged for a closer look

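The red channel of the arrays, which the comparison does not use, also carried signal. Between 285 and 295 of the 334 mouse miRNAs were well above background in red on the 5 arrays, although the labels name only Hy3 for these samples, and what was hybridized in that channel is not given in the sources used here.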

How the results depend on the processing

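The count of 99 called miRNAs depended on the scaling and on the arrays in the fit. It was 47 under the 75th percentile (31 higher, 16 lower), 54 under quantile normalization (21 higher, 33 lower), 65 for green over red (45 higher, 20 lower), 151 without normalization (all higher), 178 without a filter on dim miRNAs (20 higher, 158 lower), and 48 with only the 5 arrays in the fit (7 higher, 41 lower). Under the median of detected miRNAs it was 69 (43 higher, 26 lower) and under normexp 113 (46 higher, 67 lower). Leaving out each array gave 77 to 101, and the deposited table gave the same 99 miRNAs. With the replicate number as a block it was 96, of which 89 are shared. Arrays of the same number did not all deviate together (r = -0.09 and -0.28 between Balb/C and FVB, -0.03 and -0.08 between FVB129B6 and FVB, and 0.32, -0.0011 and 0.42 between FVB129B6 and Balb/C), so the numbers were not taken as pairs. In that replicate block miR-21 (adjusted p = 0.0895) and miR-468 (0.0521) were no longer called, and with the slide row as a block miR-218 and miR-468 were not. With the titles' M2_2L and M2_2R averaged 87 were called, without miR-21 and miR-218.

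Of the named miRNAs 5 changed sign in 1 setting. Without normalization miR-107 was at 0.13, miR-491 at 0.14 and miR-705 at 0.13, and under normexp miR-224 was at -0.11 and miR-539 at -0.087, none of them called. With only the 5 arrays in the fit miR-21, miR-218, miR-468, miR-539 and miR-672 were not called. For green over red miR-183, miR-491, miR-705 and miR-762 were not called. The cause of these changes was not tested, other than that fewer arrays leave fewer degrees of freedom. With 2 FVB arrays that were dimmer than the rest, miRNAs near background there have only bounds.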
